A study of Homo sapiens with 21 samples.

Results

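The genes described here are 45 components of the DNA replication machinery, taken by symbol from the platform annotation: the origin recognition complex, the licensing factors, the MCM2-7 helicase and its activators, the sliding clamp and its loader, the replicative polymerases, the single-strand binding protein, the enzymes of Okazaki fragment maturation and 3 fork protection factors. The rule uses symbols and no measured value, and it was written with earlier results of these data known. All 45 are on the array among 18132 genes with 1 symbol, and all 45 passed the filter on low values that 12644 genes passed.

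Their RNA was measured with 21 PrimeView expression arrays (Affymetrix), which cover 4 established lines of human breast cancer cells. The groups were cells given the solvent DMSO for 6 hours, cells given 50 nM THZ1 for 6 hours and cells given 250 nM THZ1 for 6 hours. THZ1 binds covalently to CDK7, a kinase that is part of TFIIH and acts on RNA polymerase II, and the study's question is whether triple-negative tumour cells rely on that kinase. The labels call BT-549 and MDA-MB-468 triple-negative, ZR-75-1 ER+ (oestrogen receptor positive) and T47D ER+/PR+ (also progesterone receptor positive). All lines grew in the same serum-supplemented RPMI-1640 medium, and no line carries a further genetic change that the labels name. Each group of MDA-MB-468, T47D and ZR-75-1 had 2 arrays, and each of BT-549 had 1, so BT-549 has values without a test. The labels do not say that replicate arrays came from separate cultures, so p-values here reflect only how far replicate arrays differ, and that spread may be technical.

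DNA replication is prepared in the G1 phase, when the origin recognition complex (ORC) with CDC6 and CDT1 loads the MCM2-7 helicase onto DNA, a step called licensing. In S phase, CDC45 and the GINS complex join MCM2-7 to form the active helicase, MCM10 helps to start it, and polymerases alpha, delta and epsilon copy the strands with the clamp PCNA and its loader RFC. Many of these genes are targets of E2F transcription factors, which raise them at the G1/S border, and dividing breast cancer cells in culture express them.

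For T47D and ZR-75-1 the source name in the labels is MDA-MB-468, so the line labels were checked against marker genes in the DMSO arrays. ESR1, the oestrogen receptor gene, averaged 906 in T47D and 442 in ZR-75-1 (intensity) against 30.9 in MDA-MB-468, and it was not above background in BT-549. KRT5, a basal keratin, was 3505 in MDA-MB-468 and 41.7 to 50 in the other 3 lines. VIM, a mesenchymal filament gene, was 14442 in BT-549 and 43.1 to 691 in the other 3. The ESR1, KRT5 and VIM values match the cell line field and not the source name field. Other markers separated the lines less: the luminal keratin KRT18 read 9811 in MDA-MB-468 and 13893 in T47D. The mesenchymal marker FN1 read 1109.5 in ZR-75-1 and 1631 in BT-549. Background is taken as the mean of 23 background probe sets on each array. Of the immune markers, PTPRC was not above it in any DMSO array, CD3E read 30.7 to 35.9, close above it (log2 4.94 to 5.16, background 4.65 to 4.76), and CD14, a monocyte gene, read 291 in MDA-MB-468 and 22.1 to 25.8 in the other lines. Mean intensity per array lay between 326.4 and 342.8 while the median ranged from 49.03 to 63.95, and the correlation between replicates, across genes that are not independent of each other, was 0.9941 to 0.9965. Deposited intensities were used with no further scaling. In bulk samples, fewer cells in a phase of the cycle and less RNA per cell cannot be told apart.

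At 250 nM, more replication genes were called lower than higher in each replicated line, and the calls were spread unevenly over the machinery. In MDA-MB-468, 18 of the 45 genes were called lower and 3 higher (limma, Benjamini-Hochberg adjusted p under 0.05 within the comparison), where 30.3% of all tested genes were called lower and 9.54% higher. In ZR-75-1, 28 were called lower and 1 higher, against 42.8% and 9.93% of all tested genes. In T47D, 23 were called lower and 1 higher, against 33.7% and 9.61%. The members' share called lower was thus 40.0%, 62.2% and 51.1% in the 3 lines, above the share over all genes in each. Of the 45 members, those called lower by at least 2-fold numbered 4 in MDA-MB-468, 14 in ZR-75-1 and 4 in T47D, where 10.6%, 18.1% and 9.44% of all tested genes were. At this threshold the members' share was above that of all genes in ZR-75-1 alone, and slightly below it in MDA-MB-468 and T47D. The median log2 change over the 45 genes was -0.12, -0.44 and -0.19 in that order of lines, and over all tested genes it was -0.07, -0.18 and -0.08.

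Of the 45 genes, 17 (37.8%) were called lower in each of the 3 lines at 250 nM, against 23.0% of all tested genes. They were ORC1, ORC2, ORC5, CDC6, CDT1, GMNN, MCM10, GINS1, GINS3, RFC1, RFC4, POLA2, POLD3, POLE2, FEN1, DNA2 and TIPIN. ORC3, ORC4, RFC3, RFC5, PRIM1 and WDHD1 were called lower in 2 lines, and ORC6, MCM3, MCM7, CDC45, PCNA and POLE in 1. POLD2, the second subunit of polymerase delta, was the 1 member called higher in all 3 lines on the deposited scale. For that scale, the share of all tested genes called higher in all 3 lines was not computed. RPA1 was called higher in MDA-MB-468 alone on that scale. The remaining 14 genes were called in neither direction in any line, with log2 changes between -0.20 and 0.22: MCM2, MCM4, MCM5, MCM6, GINS2, GINS4, RFC2, POLA1, PRIM2, POLD1, RPA2, RPA3, LIG1 and TIMELESS. Of the 17 genes, 10 stayed called lower in all 3 lines under each of 3 ways of rescaling the arrays: ORC5, CDC6, CDT1, GMNN, MCM10, GINS3, RFC4, POLD3, DNA2 and TIPIN. The share of all tested genes that met the same condition was not computed. Rescaling moved the median of all genes from between -0.18 and -0.07 to between 0.02 and 0.14, and 12 of the 14 uncalled genes were then called higher in at least 1 line. With arrays centred on their median, 13 members were called lower and 9 higher in MDA-MB-468, 19 and 8 in ZR-75-1 and 14 and 2 in T47D, with member medians of 0.08, -0.19 and -0.07, where 21.5%, 31.2% and 25.7% of all genes were called lower and 27.3%, 28.4% and 19.2% higher. Quantile normalization gave 17 and 12, 22 and 8, and 16 and 6 members, against 22.5% and 24.2%, 30.2% and 32.8%, and 23.7% and 26.3% of all genes. A common trimmed mean gave 18 and 5, 23 and 7, and 17 and 8, against 26.4% and 17.7%, 33.6% and 24.6%, and 26.7% and 22.1%. The 14 are therefore described as not passing the test on the deposited scale, and small changes of either sign in them depend on the scale.

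**Figure D1:**
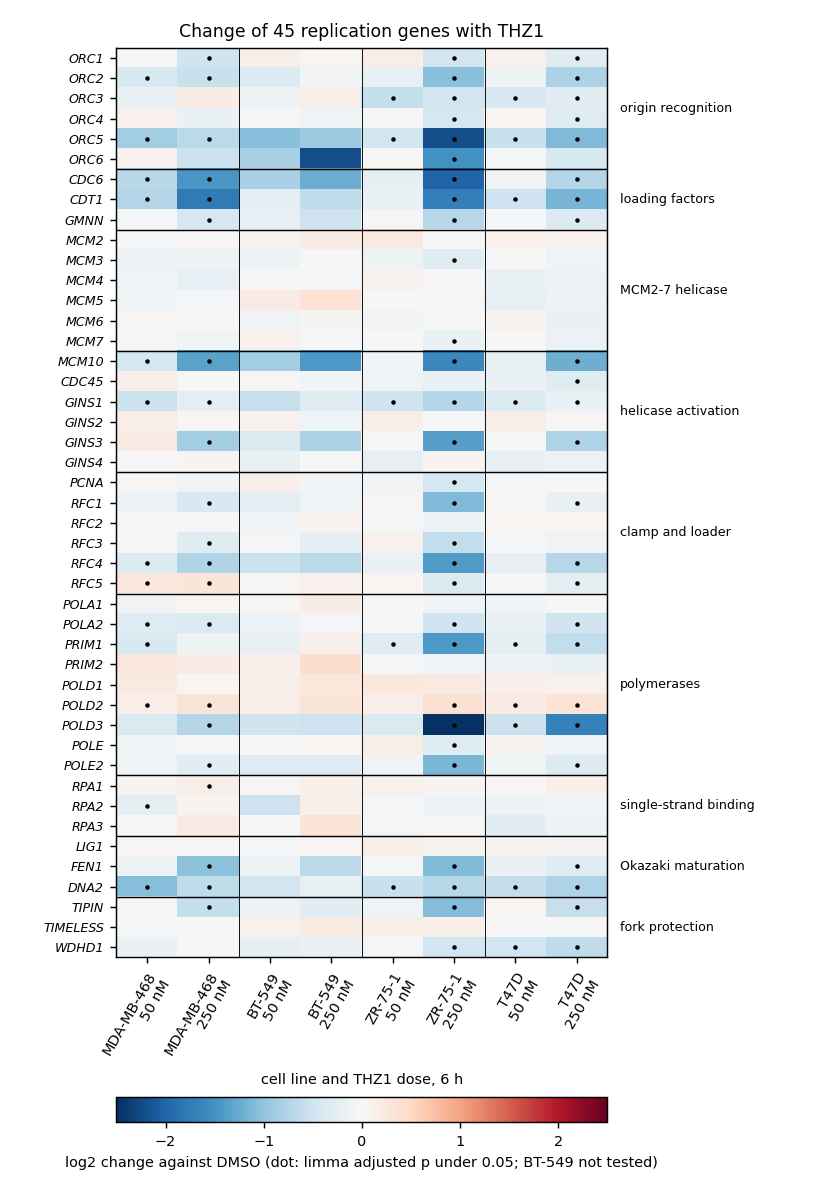
Log2 change against DMSO of the 45 genes (rows, by role) at 50 and 250 nM THZ1 in 4 lines (columns); a dot marks a limma adjusted p under 0.05, and BT-549 has 1 array a dose and no test. The 17 genes called lower in all 3 tested 250 nM columns lie in every role except the MCM2-7 helicase and single-strand binding. POLD2 is the 1 gene with rising dots in all 3, and RFC5 has dots in all 3 with 1 of them rising.

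The promoters of both kinds of gene can be set side by side. Promoter windows of 300 bases, from RefSeq on GRCh38.p14, were given for 38 of the 45 genes, and they were searched on both strands for 5 E2F-type motifs: TTTCCCGC, TTTGGCGC, TTTCGCGC, TTCCCGCC and TTGGCGGG. Some of these share bases, so matches can overlap (TTTCCCGC with TTCCCGCC, for example). At least 1 match was found in 27 of the 38 genes (71.1%), against 12.2% of the 10208 tested protein-coding genes with a window and 9.95% of all 15842 such genes. Among the 17 genes that were called lower in 3 lines, 11 of the 15 with a window held a match (73.3%). Among the 16 called lower in no line, 8 of the 11 with a window held one (72.7%). The genes called lower in 3 lines whose window held no match were ORC1, ORC2, ORC5 and FEN1. No windows were given for MCM4, MCM5, GINS4, POLD3, RPA2, RPA3 and DNA2. A match is a description of the letters, and its binding was not measured here.

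To show where the letters lie, 6 windows that hold a match were chosen after the values were seen: 3 of genes that were called lower in all 3 lines (CDC6, CDT1 and RFC4) and 3 of genes that were called in none (MCM6, LIG1 and POLA1). Each is the 160 bases before the gene's start, 5′ to 3′ on the gene's strand, with the E2F-type matches in capitals. CDC6 is at chr17:40287719-40287878 (plus strand), CDT1 at chr16:88803629-88803788 (plus strand), RFC4 at chr3:186806483-186806642 (minus strand), MCM6 at chr2:135876444-135876603 (minus strand), LIG1 at chr19:48170345-48170504 (minus strand) and POLA1 at chrX:24693758-24693917 (plus strand).
CDC6: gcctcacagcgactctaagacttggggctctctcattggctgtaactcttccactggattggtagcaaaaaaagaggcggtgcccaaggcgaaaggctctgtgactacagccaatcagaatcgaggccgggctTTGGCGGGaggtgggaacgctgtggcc
CDT1: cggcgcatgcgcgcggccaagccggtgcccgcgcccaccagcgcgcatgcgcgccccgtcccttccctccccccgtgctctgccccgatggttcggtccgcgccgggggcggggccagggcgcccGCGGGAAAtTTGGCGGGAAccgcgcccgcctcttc
RFC4: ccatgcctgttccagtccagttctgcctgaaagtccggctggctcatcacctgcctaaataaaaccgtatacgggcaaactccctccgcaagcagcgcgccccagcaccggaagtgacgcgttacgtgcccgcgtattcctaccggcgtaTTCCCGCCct
MCM6: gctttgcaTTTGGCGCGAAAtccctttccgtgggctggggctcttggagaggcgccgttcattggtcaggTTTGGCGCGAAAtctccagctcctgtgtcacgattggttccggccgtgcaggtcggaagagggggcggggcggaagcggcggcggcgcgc
LIG1: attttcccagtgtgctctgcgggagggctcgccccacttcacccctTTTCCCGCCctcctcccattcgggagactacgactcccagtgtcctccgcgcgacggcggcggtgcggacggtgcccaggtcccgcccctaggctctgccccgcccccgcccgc
POLA1: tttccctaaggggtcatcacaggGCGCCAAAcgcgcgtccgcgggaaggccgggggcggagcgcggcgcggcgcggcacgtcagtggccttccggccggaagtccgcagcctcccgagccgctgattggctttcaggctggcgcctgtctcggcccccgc
In CDC6 the match starts 27 bases before the start and in CDT1 the 3 matches start 35, 26 and 24 bases before it. MCM6 holds 4 matches as 2 overlapping pairs, which start 152, 148, 90 and 86 bases before the start. RFC4 has 1 match that starts 10 bases before the start, LIG1 has 2 overlapping ones from 114 bases, and POLA1 has 1 from 137 bases.

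CDC6 and CDT1, which bring MCM2-7 to ORC, and GMNN, which binds and inhibits CDT1, were called lower in all 3 lines at 250 nM. The median log2 change of these 3 genes was -1.46 in MDA-MB-468, -1.71 in ZR-75-1 and -0.74 in T47D.

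The CDC6 intensity in MDA-MB-468 was 1193 and 1026 with DMSO, 689 and 684 at 50 nM and 381 and 425 at 250 nM. In ZR-75-1 it was 1336 and 1351, then 1218 and 1094, then 362 and 308, and in T47D it was 1254 and 1212, then 1188 and 1122, then 715 and 759.6. The single BT-549 arrays read 868, 491 and 366. Every 250 nM array lay below every DMSO array of its line, and in MDA-MB-468 the 50 nM arrays lay between. The log2 change at 250 nM was -1.46 (SE 0.09, adjusted p = 1.35e-09) in MDA-MB-468, -2.01 (SE 0.09, 1.93e-11) in ZR-75-1 and -0.74 (SE 0.09, 4.28e-06) in T47D. The other CDC6 probe set was called lower as well but fell less, with log2 changes of -0.53, -0.61 and -0.25.

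CDT1 gave 731 and 593 in the MDA-MB-468 DMSO arrays, 347 and 448 at 50 nM and 205 and 185 at 250 nM. The ZR-75-1 arrays gave 935 and 929.6, then 822 and 808, then 302 and 269. In T47D the values were 698 and 832, then 544 and 526, then 359 and 319, and in BT-549 they were 297, 254 and 191. At 250 nM no treated array overlapped its DMSO arrays, and 3 of 3 probe sets were called lower in each line. The fall was 3.39-fold in MDA-MB-468 (log2 -1.76, SE 0.12, adjusted p = 7.36e-09), 3.27-fold in ZR-75-1 and 2.26-fold in T47D. GMNN changed by -0.42, -0.71 and -0.35 (SE 0.05 each, adjusted p = 8.80e-06, 1.05e-08 and 6.16e-05), less than CDC6 and CDT1 in each line.

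Origin recognition subunits did not move as 1 unit. ORC is a 6-subunit ATPase that marks the sites where replication can start. At 250 nM, 3 of its 6 genes were called lower in MDA-MB-468, 6 in ZR-75-1 and 5 in T47D, with medians of -0.52, -0.76 and -0.36. Over all tested genes, 30.3%, 42.8% and 33.7% were called lower. ORC5 stood lowest. Its intensity was 361 and 395 with DMSO, 216 and 199.7 at 50 nM and 230.4 and 239.8 at 250 nM in MDA-MB-468. In ZR-75-1 it was 308 and 316, then 227 and 224, then 63.4 and 72.1. T47D gave 363 and 383, then 257 and 248, then 187 and 159, and BT-549 gave 282, 137 and 151. All treated arrays of ORC5 lay below the DMSO arrays at both doses, and only in ZR-75-1 and T47D did the higher dose go lower still. The change at 250 nM was -0.68 (SE 0.09, adjusted p = 1.29e-05) in MDA-MB-468, -2.21 (SE 0.09, 9.26e-12) in ZR-75-1 and -1.11 (SE 0.09, 6.57e-08) in T47D, with 3 of 3 probe sets called lower each time.

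ORC1, the large ATPase subunit whose protein level varies over the cell cycle, had smaller falls. Its DMSO arrays read 217 and 219.8 in MDA-MB-468, 246 and 245 in ZR-75-1 and 127 and 136 in T47D. At 50 nM they read 212 and 220.5, 287 and 266, and 137 and 144, and at 250 nM 165 and 144, 174 and 185, and 108 and 106. BT-549 showed 236, 259.5 and 243. The 250 nM arrays were below DMSO in the 3 replicated lines and not in BT-549. The log2 changes were -0.50, -0.45 and -0.30 (SE 0.08, adjusted p = 1.51e-04, 2.78e-04 and 0.0103), though in ZR-75-1 the change was 0.04 under quantile normalization, and the T47D call was lost without the second DMSO array (adjusted p = 0.0886) or the second 250 nM array (0.0547).

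ORC6, the most loosely bound subunit, had unequal replicates. In ZR-75-1 it went from 689 and 712 with DMSO to 755 and 681 at 50 nM and 319 and 186 at 250 nM. T47D gave 972 and 1024, then 978 and 978, then 761 and 756. MDA-MB-468 gave 1087 and 1334, then 1329 and 1235, then 575 and 1192. The 2 MDA-MB-468 arrays at 250 nM lay apart by 1.05 on the log2 scale, the only members' replicates at least 2-fold apart, and 1 of them lay within the DMSO range. ORC6 was called lower in ZR-75-1 (log2 -1.52, SE 0.25, adjusted p = 7.06e-05) and not in MDA-MB-468 (-0.54, 0.102) or T47D (-0.40, 0.225), although the T47D arrays fitted alone gave a call (adjusted p = 1.82e-04). Without the second 250 nM array, the MDA-MB-468 value was -1.07 with an adjusted p of 7.72e-04. In BT-549 the arrays read 903, 511 and 195, which is -2.21 at 250 nM and the most negative change of any member in that line.

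ORC2 was called lower in all 3, with log2 changes of -0.55, -1.04 and -0.80 in the order MDA-MB-468, ZR-75-1, T47D. ORC4 was called lower in ZR-75-1 (-0.44) and T47D (-0.33). ORC3 was called lower in the same 2 lines (-0.48 and -0.28) and stood at 0.18 in MDA-MB-468 without passing the test. Its T47D call was lost without any 1 of that line's 4 DMSO and 250 nM arrays (adjusted p from 0.0582 to 0.205).

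The MCM2-7 helicase, the ring that those licensing factors load, lay close to its DMSO level on the deposited scale. On that scale, with 1 probe set per gene, none of its 6 genes was called lower in MDA-MB-468 or T47D. MCM3 and MCM7 were called lower in ZR-75-1. Its medians at 250 nM were -0.07, -0.00 and -0.13 in the order MDA-MB-468, ZR-75-1, T47D. MCM2 read 624 and 677 with DMSO, 645 and 615 at 50 nM and 682 and 644 at 250 nM in MDA-MB-468. It read 963 and 1063, then 1231 and 1126, then 1012 and 1021 in ZR-75-1. T47D had 1026 and 1076, then 1195 and 1078, then 1157 and 1117, and BT-549 had 676, 710.2 and 764. DMSO and 250 nM arrays of MCM2 overlapped in MDA-MB-468 and ZR-75-1 and lay above DMSO in T47D, and the changes of 0.03, 0.01 and 0.11 (SE 0.07) did not pass the test. Rescaling gave MCM2 called rises in ZR-75-1, of 0.26 with arrays centred on their median and 0.21 with a common trimmed mean. In T47D the called rises of MCM2 were 0.22 under quantile normalization and 0.25 with a common trimmed mean.

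MCM7 showed 4159 and 4022 with DMSO, 4100.2 and 4099 at 50 nM and 3930.0 and 3712 at 250 nM in MDA-MB-468. Arrays of ZR-75-1 had 3496 and 3970.0, then 3730.1 and 3663, then 3291 and 3340.2, and T47D had 2983 and 2672, then 2859 and 2842, then 2503 and 2638. The BT-549 arrays read 5013, 5359.9 and 4922. The 250 nM arrays were below DMSO by little in each line. The ZR-75-1 change of -0.17 (SE 0.06, adjusted p = 0.0372) turned to 0.08 with arrays centred on their median and to 0.04 with a common trimmed mean. Under quantile normalization, in contrast, MCM7 was called lower in all 3 lines (-0.22, -0.26 and -0.19), and with all its probe sets averaged it was called lower in T47D (-0.21) and not in ZR-75-1 (-0.07). The ZR-75-1 value lost its call without the second DMSO array (-0.08, adjusted p = 0.393) or either 250 nM array (0.125 and 0.0837). MCM3 fell by 0.31 in ZR-75-1 (SE 0.06, adjusted p = 2.02e-04), with 3 of its 4 probe sets called lower. That call was lost with arrays centred on their median (-0.06, adjusted p = 0.526) and with a common trimmed mean (-0.11, 0.102). With all its probe sets averaged, MCM3 was called lower in MDA-MB-468 (-0.13). MCM4, MCM5 and MCM6 ranged from -0.20 to 0.02 over the 3 lines, and MCM4 was called lower in MDA-MB-468 under quantile normalization (-0.28). In that setting MCM5 was called higher in MDA-MB-468 (0.27) and ZR-75-1 (0.54). It was also called higher in ZR-75-1 with arrays centred on their median (0.27). MCM6 has 1 of 3 probe sets called lower in each of ZR-75-1 and T47D, against the probe set used for the gene. With its probe sets averaged, MCM6 was called lower in T47D (-0.17).

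Helicase activation held both kinds of gene. MCM10, which helps to start the loaded helicase, was called lower in all 3 lines. Its arrays read 419 and 447 with DMSO, 323 and 321 at 50 nM and 174 and 171 at 250 nM in MDA-MB-468. Arrays of ZR-75-1 read 673 and 673, then 662 and 618, then 235 and 203. In T47D the values were 679 and 661, then 567 and 619.9, then 293 and 277, and in BT-549 701, 387 and 259. All 250 nM arrays lay far below DMSO, and all 3 probe sets were called lower in each line. The change was -1.33 in MDA-MB-468, -1.62 in ZR-75-1 and -1.23 in T47D (SE 0.08, adjusted p = 7.67e-10, 3.90e-11 and 3.05e-09).

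Of the 4 GINS genes, whose products form 1 complex in equal parts, GINS1 and GINS3 were called lower in all 3 lines and GINS2 and GINS4 in none. GINS3 went from 314 and 333 with DMSO to 158 and 203 at 250 nM in MDA-MB-468, from 289.9 and 272 to 106 and 109.9 in ZR-75-1 and from 275 and 284 to 168 and 158 in T47D. That is -0.85, -1.38 and -0.78 (SE 0.10, adjusted p = 2.11e-06, 3.75e-09 and 6.75e-06), with no overlap of arrays. GINS1 changed by -0.24, -0.74 and -0.17, and its T47D call was lost without the first DMSO array (adjusted p = 0.0696) or the second 250 nM array (0.0615). GINS2 lay between -0.05 and 0.04 and GINS4 between -0.15 and 0.07, and with its probe sets averaged GINS4 was called lower in T47D (-0.38). CDC45, which binds GINS and MCM2-7 in the active helicase, was called lower in T47D (-0.31, adjusted p = 0.00711; 0.0622 without the first DMSO array) and stood at -0.01 and -0.16 in the other 2 lines.

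**Figure D2:**
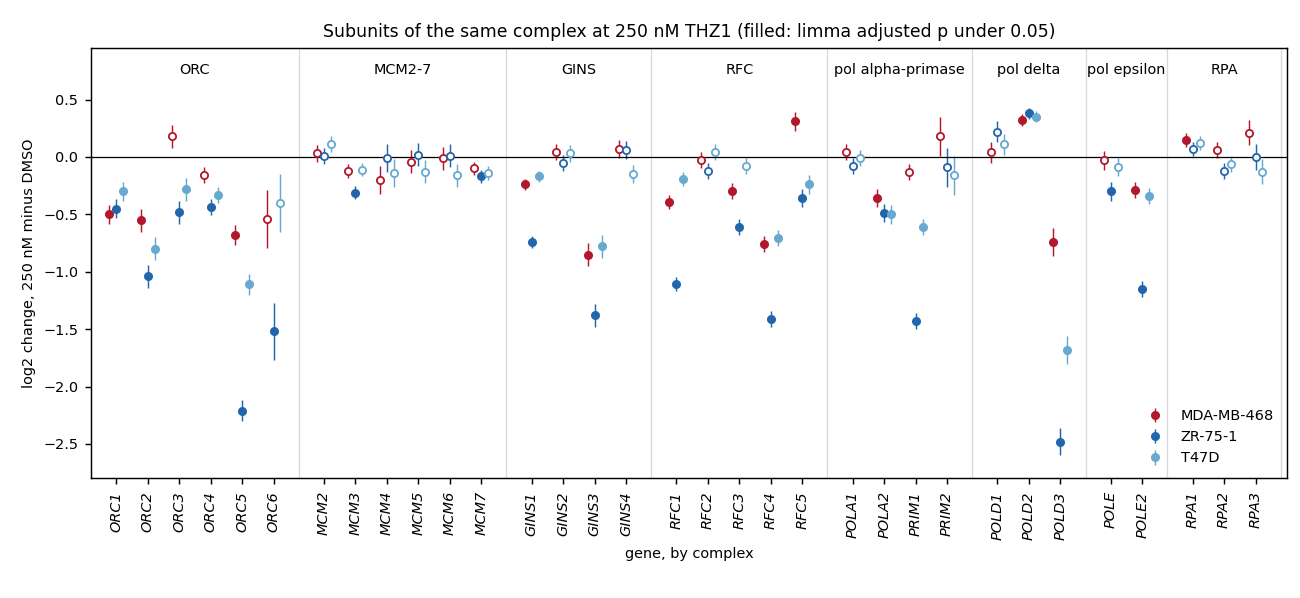
Fitted log2 change at 250 nM THZ1 minus DMSO (y axis) for each subunit (x axis, by complex) in 3 lines; bars are the standard error, and filled points have a limma adjusted p under 0.05. MCM2-7 points lie between -0.31 and 0.11, while GINS, RFC, polymerase alpha-primase and polymerase delta each hold subunits close to 0 beside a subunit below -1 in ZR-75-1.

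The clamp and its loader also held called and uncalled genes. PCNA, the ring that tethers polymerases to DNA, read 6132 and 6369.8 with DMSO, 6415 and 6533 at 50 nM and 5846 and 5891 at 250 nM in MDA-MB-468. In ZR-75-1 it read 3968 and 4125, then 3966 and 3800.0, then 3145 and 2879, and in T47D 5354 and 5222, then 5057 and 5154, then 5315 and 5256. BT-549 had 4044, 4419 and 3870.2. Only the ZR-75-1 change passed the test (-0.43, SE 0.05, adjusted p = 1.82e-06), but other settings gave other calls. With a common trimmed mean the T47D value of -0.00 became 0.13 and was called higher (adjusted p = 0.0479). Under quantile normalization PCNA was called lower in all 3 lines (-0.23 in MDA-MB-468, -0.13 in T47D), as it was with all its probe sets averaged (-0.71 in MDA-MB-468, -0.31 in T47D), and with arrays centred on their median the ZR-75-1 value was -0.18 without a call (adjusted p = 0.0734). RFC opens that clamp and closes it around DNA. RFC1, its large subunit, was called lower at -0.39, -1.11 and -0.19 in the order MDA-MB-468, ZR-75-1, T47D. The T47D value of RFC1 was 0.05 under quantile normalization, and its call was lost without either DMSO array or the second 250 nM array (adjusted p = 0.0674, 0.0758 and 0.0856). RFC4 changed by -0.76, -1.41 and -0.71 (SE 0.07, adjusted p = 3.12e-07, 1.14e-10 and 8.54e-07), and with all its probe sets averaged the T47D value was -0.20 without a call (adjusted p = 0.156). RFC3 was called lower in MDA-MB-468 (-0.30) and ZR-75-1 (-0.61), and RFC2 lay between -0.12 and 0.04 with no call.

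RFC5 was called in opposite directions on the deposited scale. Its arrays in MDA-MB-468 read 578 and 604 with DMSO, 689 and 737 at 50 nM and 727 and 741 at 250 nM. ZR-75-1 read 909 and 1008, then 1072 and 909, then 779 and 717. T47D read 1105 and 1102, then 1137 and 1053, then 881 and 991, and BT-549 read 754, 769 and 814. The 250 nM arrays lay above DMSO in MDA-MB-468 and below it in the 2 ER+ lines. The change was 0.31 in MDA-MB-468 (SE 0.08, adjusted p = 0.00692), -0.36 in ZR-75-1 (0.00185) and -0.24 in T47D (0.0306). Both falls lost their calls under each of the 3 rescalings. With arrays centred on their median, quantile normalization and a common trimmed mean, ZR-75-1 gave -0.11, -0.15 and -0.15. In the same order T47D gave -0.12, -0.14 and -0.11. Without the first DMSO array the MDA-MB-468 call was narrowly lost (adjusted p = 0.0504), and in T47D it was lost without either DMSO array (0.106 and 0.0970) or the first 250 nM array (0.251).

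Polymerase subunits held the largest fall and, on the deposited scale, the only rise shared by 3 lines. Of these 9 genes, 3 were called lower in MDA-MB-468, 5 in ZR-75-1 and 4 in T47D, and 1 was called higher in each. Over all tested genes, 30.3%, 42.8% and 33.7% were called lower and 9.54%, 9.93% and 9.61% higher. POLD3, an accessory subunit of the lagging-strand polymerase delta, read 383 and 478 with DMSO, 339 and 327 at 50 nM and 270.5 and 245 at 250 nM in MDA-MB-468. In ZR-75-1 it read 338 and 319, then 238 and 274, then 51.7 and 67.5. T47D gave 339 and 325, then 232 and 226, then 98.7 and 109, and BT-549 gave 255, 179.8 and 179. No treated array reached its DMSO range at either dose. The fall at 250 nM was 1.66-fold in MDA-MB-468 (log2 -0.74, SE 0.12, adjusted p = 1.53e-04), 5.56-fold in ZR-75-1 (-2.48, SE 0.12, 7.98e-11) and 3.2-fold in T47D (-1.68, SE 0.12, 2.16e-08), with 3 of 3 probe sets called lower in each line.

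POLD2, the subunit that joins the catalytic chain of polymerase delta to POLD3, rose. It read 1700.4 and 1773 with DMSO, 1916 and 1966 at 50 nM and 2155 and 2179 at 250 nM in MDA-MB-468. Arrays of ZR-75-1 read 974 and 1082, then 1155 and 1153, then 1348 and 1316. T47D read 1877 and 1867, then 2179 and 2116, then 2385 and 2393, and BT-549 read 1069, 1176 and 1331. Each dose lay above the one before in all 4 lines, without overlap of arrays. The change at 250 nM was 0.32, 0.38 and 0.35 (SE 0.05, adjusted p = 1.51e-04, 1.72e-05 and 5.85e-05), both probe sets were called higher, and the call was kept under each of the 3 rescalings. POLD1, the catalytic subunit, lay between 0.04 and 0.22 and passed no test on the deposited scale. Under quantile normalization POLD1 was called higher in all 3 lines (0.27 in MDA-MB-468, 0.71 in ZR-75-1 and 0.42 in T47D). In ZR-75-1 it was also called higher with arrays centred on their median (0.47) and with a common trimmed mean (0.42).

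POLA1, the catalytic subunit of the polymerase alpha-primase complex that lays down primers, passed no test on the deposited scale. Its MDA-MB-468 arrays read 348 and 339 with DMSO, 331 and 315 at 50 nM and 360.2 and 348 at 250 nM. ZR-75-1 read 349 and 370.1, then 364 and 359, then 344 and 334, and T47D read 552 and 507, then 496 and 520.4, then 543 and 509. BT-549 had 574, 588 and 656. The changes were 0.04, -0.08 and -0.01 (SE 0.07). Under quantile normalization they became called rises in all 3 lines, of 0.26 in MDA-MB-468, 0.31 in ZR-75-1 and 0.21 in T47D. With arrays centred on their median, POLA1 was called higher in MDA-MB-468 (0.24). POLA2, its second subunit, was called lower in the 3 lines at -0.36, -0.49 and -0.50. PRIM1, the catalytic primase subunit, was called lower in ZR-75-1 (-1.43, SE 0.07, adjusted p = 4.42e-11) and in T47D (-0.61), and stood at -0.13 in MDA-MB-468 (adjusted p = 0.162). PRIM2, the other primase subunit, passed no test, and its 2 probe sets disagreed, 1 of them being called higher in ZR-75-1 and T47D. Of polymerase epsilon, POLE2 was called lower in all 3 lines (-0.29, -1.15 and -0.34) and the catalytic POLE in ZR-75-1 (-0.30, and 0.10 under quantile normalization). With arrays centred on their median, POLE2 lost its call in MDA-MB-468 (-0.09) and T47D (-0.22). Quantile normalization ended the same POLE2 calls (-0.06 in MDA-MB-468 and -0.14 in T47D). The MDA-MB-468 call of POLE2 was lost without the second 250 nM array (adjusted p = 0.0583).

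**Figure D3:**
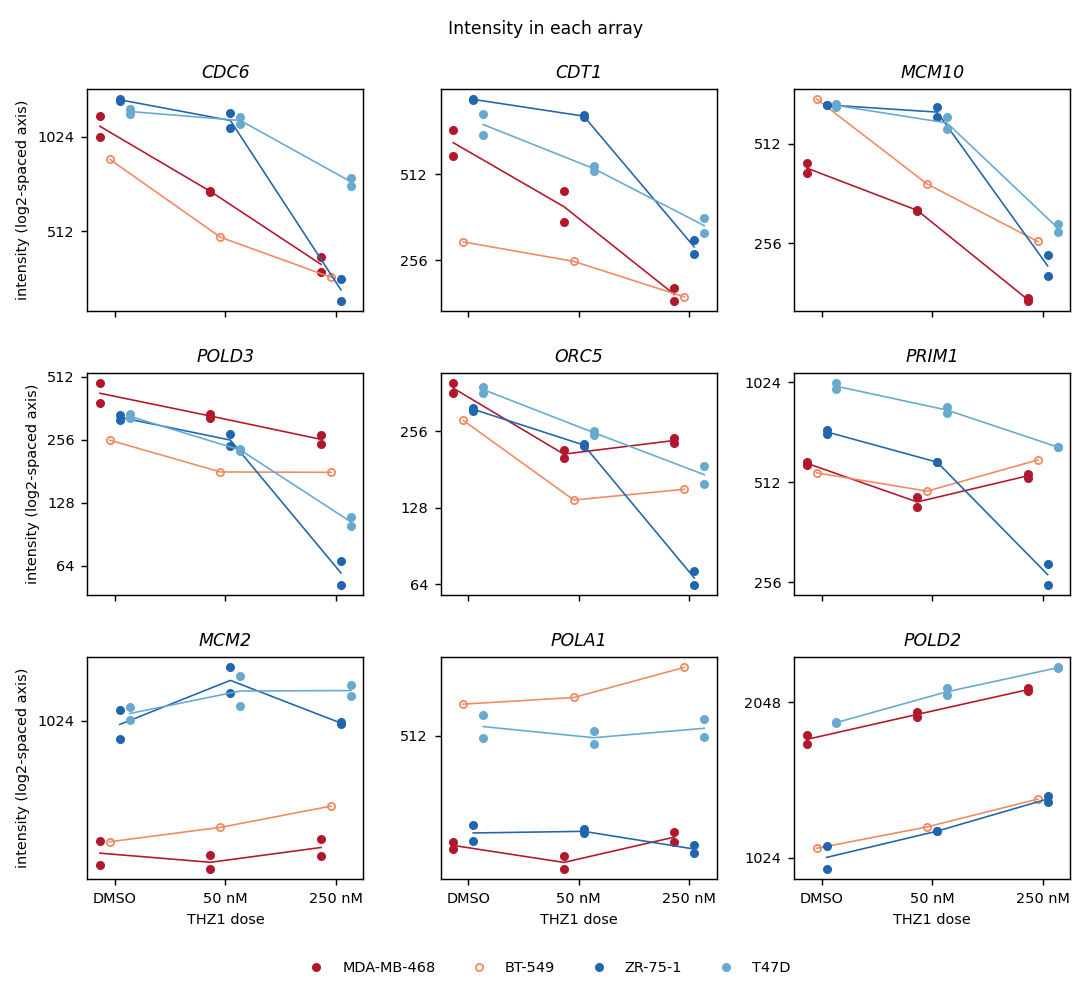
Intensity in each array (y axis, log2-spaced) at each THZ1 dose (x axis) for 9 genes in 4 lines; points are arrays, filled where a line has 2 per dose, and lines join the geometric means. CDC6, CDT1, MCM10, POLD3 and ORC5 lie below DMSO at 250 nM in every line, PRIM1 lies far below it in ZR-75-1, MCM2 and POLA1 lie near their DMSO level, and POLD2 lies higher at each dose.

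On the deposited scale with 1 probe set per gene, no gene of replication protein A, which coats single-stranded DNA, was called lower at 250 nM. With all probe sets of a gene averaged, RPA2 was called lower in T47D (-0.20, adjusted p = 0.0244). In MDA-MB-468, RPA2 was called higher with arrays centred on their median (0.26). RPA3 was called higher there under each of the 3 rescalings (0.41, 0.33 and 0.29). With arrays centred on their median and with a common trimmed mean, RPA1 was called higher in all 3 lines. Its changes there were 0.32 and 0.27 in ZR-75-1 and 0.24 and 0.25 in T47D. Under quantile normalization RPA1 was called higher in no line (0.06 in MDA-MB-468). On the deposited scale it was called higher in MDA-MB-468 alone (0.15, SE 0.06, adjusted p = 0.0414). That call was lost without any 1 of 10 arrays, 4 of them of MDA-MB-468 (adjusted p from 0.0505 to 0.273). Among genes of Okazaki fragment maturation, FEN1, the flap endonuclease, was called lower in each line. FEN1 arrays read 1709.6 and 1914 with DMSO, 1555 and 1777 at 50 nM and 834 and 949 at 250 nM in MDA-MB-468. Arrays of ZR-75-1 read 1714 and 1792, then 1843 and 1590.3, then 850.0 and 778. T47D read 1644 and 1665, then 1379 and 1589.7, then 1295 and 1390.0, and BT-549 read 1267, 1154 and 808. The fall was close to 2-fold in MDA-MB-468 and ZR-75-1 (log2 -1.02 and -1.11, SE 0.10, adjusted p = 2.27e-07 and 4.74e-08) and smaller in T47D (-0.30, 0.0176). The T47D call was lost without either DMSO array (adjusted p = 0.0630 and 0.0768) or the first 250 nM array (0.119), although 3 of 3 probe sets were called lower. DNA2, a nuclease and helicase that trims long flaps, changed by -0.63, -0.72 and -0.77, and LIG1, the ligase that seals the fragments, by 0.01, 0.06 and 0.06. Under quantile normalization LIG1 was called higher in all 3 lines (0.25 in MDA-MB-468, 0.51 in ZR-75-1 and 0.37 in T47D).

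Of the fork protection genes, 1 was called lower in all 3 lines, 1 in 2 and 1 in none. TIPIN changed by -0.60, -1.09 and -0.57 in the order MDA-MB-468, ZR-75-1, T47D (SE 0.07, adjusted p = 2.27e-06, 1.03e-09 and 4.58e-06). TIMELESS, with which TIPIN forms a complex at the fork, stood at -0.01, 0.14 and 0.01 with no call on the deposited scale. Under quantile normalization TIMELESS was called higher in all 3 lines (0.25, 0.52 and 0.23 in the same order). WDHD1, which links the helicase to polymerase alpha, was called lower in ZR-75-1 (-0.47, adjusted p = 0.00486; 0.04 under quantile normalization) and T47D (-0.63, 6.51e-04) and stood at -0.00 in MDA-MB-468. Without the second 250 nM array of ZR-75-1 the WDHD1 call there was lost (adjusted p = 0.0637). Over the 74 calls at 250 nM in these 45 genes and 3 lines, none had another probe set of the gene called in the opposite direction. Genes with only 1 probe set, such as ORC1, GMNN, GINS3 and POLE2, could not show such a disagreement.

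The lower dose reached fewer genes, and not always the same ones. At 50 nM, 11 of the 45 genes were called lower and 2 higher in MDA-MB-468, against 14.6% and 4.42% of all tested genes. In ZR-75-1 the counts were 5 and 0 (5.68% and 2.79% of all genes), and in T47D 8 and 1 (7.56% and 1.99%). In ZR-75-1, 13 of the 45 had an unadjusted limma p under 0.05 in either direction at 50 nM. ORC5, GINS1, PRIM1 and DNA2 were called lower in all 3 lines at 50 nM, which is 8.89% of the members against 2.83% of all tested genes. Without the second 50 nM array of ZR-75-1 this count was 2, and the count called lower in that line was 3. Without any 1 of the 4 DMSO and 50 nM arrays of T47D, 3 to 5 genes were called lower and none higher in T47D. DNA2 read 176 and 181 with DMSO, 91 and 80.1 at 50 nM and 118 and 112 at 250 nM in MDA-MB-468, a fall of 1.06 on the log2 scale at 50 nM (SE 0.12, adjusted p = 1.26e-05). It was the only member lower by at least 2-fold at 50 nM in a replicated line.

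Several genes then stood higher at 250 than at 50 nM. In MDA-MB-468, 14 members were called lower and 6 higher at 250 than at 50 nM, where 23.2% and 5.73% of all tested genes were. In ZR-75-1 the counts were 27 and 2 (41.7% and 6.64%), and in T47D 16 and 2 (27.2% and 4.59%). The 6 in MDA-MB-468 were ORC3, GINS1, PRIM1, POLD2, RPA2 and DNA2. DNA2 was higher at 250 than at 50 nM by 0.43 (SE 0.12, adjusted p = 0.0115), GINS1 by 0.28 (SE 0.05, 3.45e-04) and PRIM1 by 0.26 (SE 0.07, 0.00756). For GINS1 the MDA-MB-468 arrays read 882 and 882 with DMSO, 631 and 594 at 50 nM and 751 and 741 at 250 nM, and the T47D arrays 1777 and 1749, then 1415 and 1364, then 1575 and 1555. In ZR-75-1 GINS1 went on down, from 2172 and 2216 to 1569 and 1564 and then 1334 and 1286. The single BT-549 arrays of GINS1 read 1632, 1096 and 1362 and those of PRIM1 546, 481 and 597. CDC6, CDT1, MCM10, GINS3 and POLD3, in contrast, were called lower at 250 than at 50 nM in each of the 3 lines. The 6 rises in MDA-MB-468 each lost their call under at least 1 alternative setting, and 3 were called without either 50 nM array or without the first 250 nM array.

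**Figure D4:**
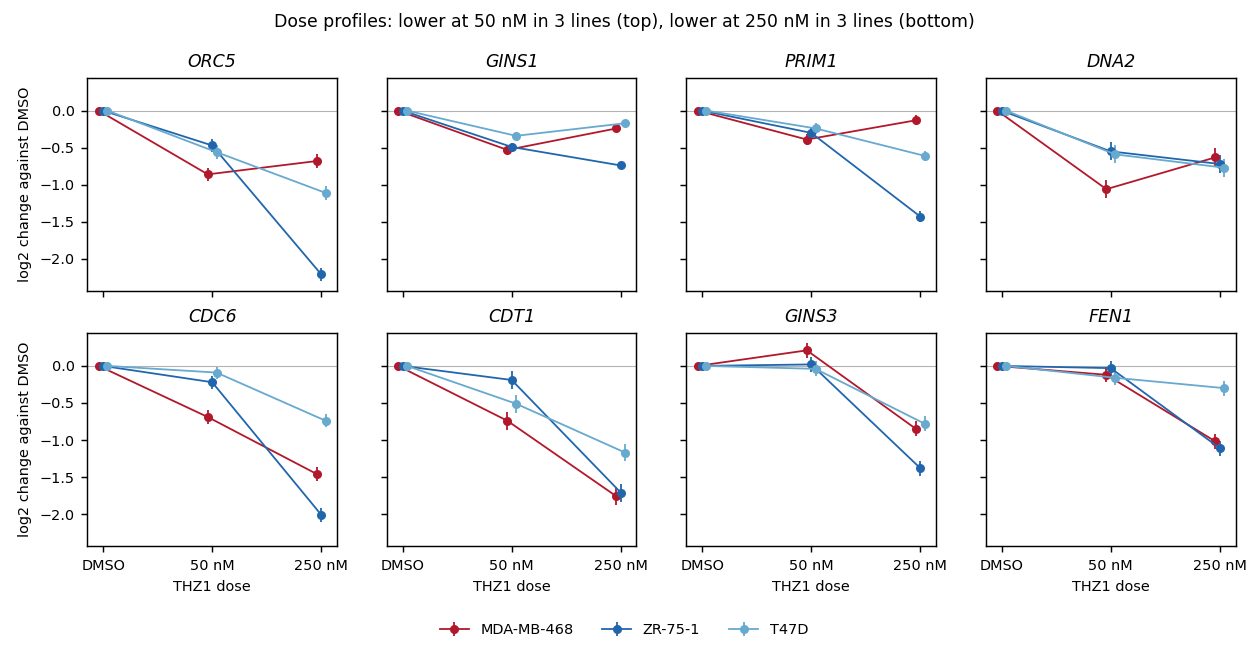
Log2 change against DMSO (y axis) at 50 and 250 nM THZ1 (x axis) in 3 lines, with standard errors; DMSO is set to 0. The top row holds the 4 genes called lower at 50 nM in all 3 lines, of which GINS1, PRIM1 and DNA2 stand higher at 250 than at 50 nM in MDA-MB-468, and the bottom row holds 4 genes called lower at 250 nM in all 3, with falls from 0.30 to 2.01.

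The size of the response differed between lines when the difference of the changes was tested. Between MDA-MB-468 and ZR-75-1, the change at 250 nM differed for 16 of the 45 genes, against 22.9% of all tested genes. All 16 were more negative in ZR-75-1, the direction of 19.9% of all tested genes. Between ZR-75-1 and T47D it differed for 17 (22.2% of all genes), all more negative in ZR-75-1 like 19.8% of all genes. Between MDA-MB-468 and T47D it differed for 9 (14.5%), of which 3, CDC6, CDT1 and FEN1, were more negative in MDA-MB-468 (8.11% of all genes). The count of 9 was 5 without the first DMSO array or the second 250 nM array of MDA-MB-468, or without the first DMSO array of T47D. POLD3 gave the widest gap, 1.74 between MDA-MB-468 and ZR-75-1 (SE 0.18, adjusted p = 4.88e-06) and 0.94 between MDA-MB-468 and T47D (SE 0.18, 0.00172). ORC5 differed by 1.52 between MDA-MB-468 and ZR-75-1 (SE 0.13, adjusted p = 1.08e-06). CDC6 differed by -1.27 between ZR-75-1 and T47D (SE 0.13, adjusted p = 3.01e-06) and by -0.72 between MDA-MB-468 and T47D (SE 0.13, 0.00106). ORC6 differed by -1.13 between ZR-75-1 and T47D (SE 0.35, adjusted p = 0.0317), a call that was lost without any 1 of 7 of the 8 arrays involved (adjusted p from 0.0638 to 0.156). With each line labelled as 1 subtype and 3 replicated lines, a difference of subtype and a difference of line cannot be told apart.

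The lines also differed before treatment. Between DMSO arrays, 34 of the 45 genes were called between MDA-MB-468 and ZR-75-1 (66.0% of all tested genes), 33 between MDA-MB-468 and T47D (67.6%) and 33 between ZR-75-1 and T47D (63.1%). RFC4 had the widest gap: its DMSO intensity was 3211 and 3248 in T47D against 721 and 715 in ZR-75-1 (log2 difference -2.17, SE 0.07, adjusted p = 5.38e-13), with 1288 and 1535 in MDA-MB-468. ORC2 read 437 and 443 in ZR-75-1, above 170.1 and 204 in MDA-MB-468 and 197 and 225 in T47D. GINS1 was lowest in MDA-MB-468 and highest in ZR-75-1, and GINS2 was lowest among the replicated lines in MDA-MB-468 (789.5 and 925, against 2262 and 2176 in T47D). GINS4 ran the other way, with 202 and 196 in ZR-75-1 against 421 and 454 in MDA-MB-468.

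BT-549 had 1 array per dose and no test. At least 2-fold lower were 1 member at 50 nM, ORC5, where 3.24% of all tested genes were, and 3 members at 250 nM, ORC6, MCM10 and CDC6, where 8.94% were. Of the 17 genes called lower in the other 3 lines at 250 nM, 16 were below their DMSO value in BT-549, where 49.4% of all tested genes were, and of the 14 genes called in none, 3 were. The 17 were picked by their falls in lines given the same drug, so the share over all genes is not a like comparison. The BT-549 share among all genes called lower in those lines was not computed. The exception among the 17 was ORC1, at 0.05, and POLA2 (-0.03), ORC2 (-0.06) and RFC1 (-0.11) lay close to 0. In a fit across all 4 lines, on 1 mean per line and dose, 20 members were called lower and 2 higher at 250 nM (29.9% and 9.48% of all genes), the 2 being POLD2 (0.34) and RPA1 (0.12). Without MDA-MB-468 or without T47D, 12 were called lower and 1 higher, and without BT-549 1 was called higher. MCM10 averaged -1.40 over the 4 lines, CDC6 -1.36, POLD3 -1.35 and CDT1 -1.32. At 50 nM that fit called none of the 45 (0.498% of all genes), although 9 had an unadjusted p under 0.05.

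Other genes of S phase were taken from 4 lists, whose counts at 250 nM stand against 30.3%, 42.8% and 33.7% of all tested genes called lower and 9.54%, 9.93% and 9.61% higher. Among 12 drivers of the G1/S border, 10 were called lower and none higher at 250 nM in each replicated line, with medians of -1.57 in MDA-MB-468, -2.03 in ZR-75-1 and -1.16 in T47D. MYC, a transcription factor that drives growth, fell in the 3 lines (log2 changes of -4.23, -2.29 and -2.18), as did CDC25A, the phosphatase that activates CDK2 (-1.71, -2.40 and -1.20). E2F8, an E2F family repressor, changed by -3.73 in ZR-75-1. In the other 2 lines both 250 nM arrays of E2F8 were not above background, so the fall there was at least 10.2-fold in MDA-MB-468 and at least 10.1-fold in T47D. E2F3, an activating E2F, fell in all 3 (-1.59, -2.16 and -1.34). Of 15 regulators of origin firing and the replication checkpoint, 9, 12 and 12 were called lower and none higher. TOPBP1, which helps to assemble the helicase at origins, changed by -0.61, -1.14 and -0.58, TICRR, its partner, by -1.35 (1 of the 2 arrays at 250 nM was not above background), -1.51 and -0.85, and MMS22L, a fork repair factor, by -0.49, -2.20 and -1.36.

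Accessory fork and chromatin factors were called in both directions. Of the 21, the number called lower was 9, 11 and 9 and the number called higher 5, 3 and 3. ATAD5, which unloads PCNA, changed by -1.57 in MDA-MB-468 and -1.64 in T47D and fell at least 4.2-fold in ZR-75-1, where neither array at 250 nM was above background, and RFWD3, a ubiquitin ligase at RPA-coated forks, changed by -1.22, -1.73 and -1.33. POLE4, RNASEH2C and SSRP1 were the genes called higher in all 3 lines, named after their values were seen. Of the 12 genes of nucleotide supply that were tested (13 listed), 2, 7 and 3 were called lower and 2 in each line higher, with medians of -0.01, -0.20 and -0.07. CTPS1, which makes CTP, was called lower in the 3 lines (-0.41, -0.73 and -0.34). CAD, which starts pyrimidine synthesis, was called lower in ZR-75-1 (-0.50) and T47D (-0.34), and TYMS, thymidylate synthase, rose by 0.19 in MDA-MB-468 and 0.35 in ZR-75-1.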

How the data were processed

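RNA of 4 breast cancer lines was measured on 21 3' expression arrays in 12 groups, labelled from a fixed mass of total RNA by oligo(dT) priming, per the labels' protocols. The values deposited by the authors are linear probe set intensity from MAS5, per the submitters' processing notes; its version and scaling are not given in the sources used here. A spike-in mix was added by cell number, per the labels, and no probe set is named for it, so levels per cell are not known.

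Intensity was set to at least 1 and log2-transformed. A gene is the probe set with the highest mean (115 probe sets for the 45 genes), tested where its highest group mean reached log2 5.84, the median of all values. With limma 3.58.1 (R 4.3.3), a model of 9 groups was fitted to 18 arrays by lmFit and eBayes (trend on; 9 residual, 6.18 prior degrees of freedom), and a model of 12 line-by-dose means gave the 4-line comparison. The fit was tested on simulated data. Replicate numbers did not pair samples: the correlation of replicate differences between doses ran from -0.22 to 0.29. Alternatives were 3 rescalings, another floor, filter, probe set rule and variance prior, each line alone, a replicate block and leaving out each array. Precision is limited by 2 arrays per group.

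The members, lists, motifs and naming rule were chosen with earlier results of these data known. Array values are given for the 4 most negative and 2 most positive members per line at 250 nM, 2 per pair of lines and MCM2, MCM7, PCNA, CDC6, CDT1, ORC1 and POLA1; others were chosen after their values were seen.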

Additional observations from a re-analysis of the deposited data

Results flagged for a closer look

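The tested differences between lines in the change at 250 nM are given here for each member, as the change in the first line minus the change in the second (log2 scale, limma adjusted p under 0.05); their causes were not tested. No group held enough arrays to look for single arrays far from the rest.

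For MDA-MB-468 minus ZR-75-1, all 16 values were positive, because the fall was larger in ZR-75-1 or, for ORC3 and RFC5, the MDA-MB-468 change was above 0. Origin and licensing genes gave 0.49 for ORC2, 0.66 for ORC3, 1.52 for ORC5, 0.55 for CDC6 and 0.29 for GMNN. GINS1 gave 0.50 and GINS3 0.53. The clamp and loader gave 0.34 for PCNA, 0.72 for RFC1, 0.31 for RFC3, 0.65 for RFC4 and 0.67 for RFC5. The polymerase subunits PRIM1, POLD3 and POLE2 gave 1.30, 1.74 and 0.86, and TIPIN gave 0.49. The RFC4 value was -0.03 when all probe sets of a gene were averaged. The calls of ORC2 and RFC3 were each lost without any 1 of 5 arrays (adjusted p from 0.0513 to 0.120 and 0.0610 to 0.124) and that of GMNN without 1 (0.0585), and 8 of the 16 calls held in every setting.

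For MDA-MB-468 minus T47D, 6 values were positive: 0.46 for ORC3, 0.43 for ORC5, 0.55 for RFC5, 0.48 for PRIM1, 0.94 for POLD3 and 0.63 for WDHD1. Negative values, a larger fall in MDA-MB-468, were -0.72 for CDC6, -0.59 for CDT1 and -0.72 for FEN1. Leaving out 1 array ended 4 of these 9 calls: ORC3 for any 1 of 11 arrays (adjusted p from 0.0533 to 0.154), ORC5 for 6 (0.0544 to 0.154), WDHD1 for 5 (0.0535 to 0.121) and CDT1 for 4 (0.118 to 0.154). The other 5 held in every setting.

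For ZR-75-1 minus T47D, all 17 values were negative. They were -1.09 for ORC5, -1.13 for ORC6, -1.27 for CDC6, -0.54 for CDT1 and -0.36 for GMNN. Helicase activators gave -0.39 for MCM10, -0.57 for GINS1 and -0.61 for GINS3. Clamp and loader genes gave -0.43 for PCNA, -0.92 for RFC1, -0.53 for RFC3 and -0.70 for RFC4. The remaining genes gave -0.82 for PRIM1, -0.80 for POLD3, -0.80 for POLE2, -0.80 for FEN1 and -0.52 for TIPIN. Leaving out 1 array ended the calls of ORC6 for any 1 of 7 arrays (adjusted p from 0.0638 to 0.156), CDT1 for 5 (0.0788 to 0.166) and MCM10 for 3 (0.0582 to 0.0794), and 10 of the 17 held in every setting.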

How the results depend on the processing

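The number of arrays per group limits the precision, and whether RNA per cell changed cannot be read from these arrays; the causes of the shifts below were not tested. The floor of 16 changed no count by over 1.5 times, and the replicate block moved 1 count by over 1.5 times, that called higher in MDA-MB-468 at 50 nM, from 2 to 1; the other counts moved by at most 3 (16 to 19 for the difference of MDA-MB-468 and ZR-75-1). No rescaling to the spike-in mix was run.

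Counts of members moved by over 1.5 times as follows. With arrays centred on their median, the counts lower were 7 in MDA-MB-468 at 50 nM, 14 in T47D at 250 nM, 17 in ZR-75-1 for 250 against 50 nM and 11 in all 3 lines at 250 nM. The counts higher were 5 and 9 in MDA-MB-468 at 50 and 250 nM, 8 in ZR-75-1 and 2 in T47D at 250 nM, 0 in T47D at 50 nM, 4 in ZR-75-1 for 250 against 50 nM and 9 over 4 lines, and the changes of ZR-75-1 and T47D differed for 11. With quantile normalization, the counts higher were 12 in MDA-MB-468, 8 in ZR-75-1 and 6 in T47D at 250 nM, 10, 11 and 6 for 250 against 50 nM, 2 in T47D at 50 nM and 10 over 4 lines, and the changes of MDA-MB-468 and ZR-75-1 differed for 10. With a common trimmed mean, they were 5, 7 and 8 at 250 nM, 1 in MDA-MB-468 at 50 nM, 6 in ZR-75-1 for 250 against 50 nM, and 8 over 4 lines at 250 nM, with 1 called at 50 nM. With all probe sets averaged, the counts higher were 1 in MDA-MB-468 and 1 in ZR-75-1 at 50 nM, 2 in ZR-75-1 and 2 in T47D at 250 nM, 1 in each of ZR-75-1 and T47D for 250 against 50 nM, and 1 over 4 lines. The other settings that moved a count higher were no filter (1 in MDA-MB-468 at 50 nM and 1 in T47D for 250 against 50 nM), the 60th percentile filter (2 in ZR-75-1 at 250 nM), no variance trend (0 in MDA-MB-468 and in T47D at 50 nM, 1 in T47D for 250 against 50 nM, 1 over 4 lines) and each line alone (1 in MDA-MB-468 at 50 nM, 0 in ZR-75-1 for 250 against 50 nM, 2 in T47D at 250 nM).

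Single values that turned direction with a call on one side were, under quantile normalization in MDA-MB-468 at 250 nM, 0.27 for MCM5, 0.25 for TIMELESS and 0.30 for WDHD1. In ZR-75-1 they were 0.04 for ORC1, 0.31 for POLA1, 0.42 for PRIM2, 0.10 for POLE and 0.04 for WDHD1, in T47D 0.05 for RFC1 and 0.21 for POLA1, and over 4 lines 0.03 for ORC1 and 0.27 for GINS4. With arrays centred on their median, MCM7 was 0.08 in ZR-75-1 and 0.05 over 4 lines, and RFC2 0.15 over 4 lines. With a common trimmed mean, MCM7 was 0.04 and 0.03 and PCNA in T47D 0.13. With probe sets averaged, TIPIN was -0.23 in MDA-MB-468 at 50 nM, RFC4 -0.03 in the difference of MDA-MB-468 and ZR-75-1, and GINS4 -0.25 in DMSO between MDA-MB-468 and T47D.

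Leaving out 1 array at a time turned no direction. The counts lower ran from 8 to 12 in MDA-MB-468, 3 to 6 in ZR-75-1 and 3 to 9 in T47D at 50 nM, and 2 to 5 in all 3 lines. At 250 nM they ran from 18 to 19, 26 to 28 and 17 to 23, and 14 to 18 in all 3 lines, and for 250 against 50 nM from 11 to 16, 24 to 28 and 13 to 17. The counts higher ran from 0 to 2, 0 to 1 and 0 to 1 at 50 nM, 1 to 3, 1 to 2 and 1 to 1 at 250 nM, and 3 to 6, 1 to 2 and 0 to 2 for 250 against 50 nM. Differences of change ran from 13 to 19 between MDA-MB-468 and ZR-75-1, 5 to 10 between MDA-MB-468 and T47D and 14 to 18 between ZR-75-1 and T47D. Without 1 line, the 4-line fit called 12 to 19 lower and 1 to 2 higher at 250 nM and 0 to 1 at 50 nM.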

Other observations

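The CCAAT box (CCAAT, both strands) was found in 23 of the 38 members' promoter windows (60.5%), against 43.2% of tested genes with a window, and in 8 of the 15 genes called lower in 3 lines (53.3%). The CHR letters TTTGAA or TTCGAA were in 1 of the 38 (2.63%), against 15.6% of tested genes. Across the 45 genes, Spearman's rho between gene length in RefSeq and log2 change at 250 nM was 0.20 in MDA-MB-468, 0.04 in ZR-75-1 and -0.04 in T47D. Across 12636 tested genes it was -0.07, -0.14 and -0.17. Points of one line share the same arrays, so these are descriptions of these arrays.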
